A study of Mus musculus with 6 samples.

Results

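Smooth muscle cells of the mouse lung were picked out of 6 single-cell RNA libraries by their transcripts. A barcode, the tag that marks the RNA of 1 droplet, was kept where it held at least 500 genes, at least 1000 unique molecular identifiers (UMIs, each standing for 1 captured transcript) and at most 15% mitochondrial UMIs. It was called a smooth muscle cell where it held at least 3 UMIs of Myh11 (smooth muscle myosin heavy chain), at least 2 of Cnn1 (calponin, which binds actin and slows myosin) and at least 1 of Des (desmin, the muscle intermediate filament). It also had to hold at most 1 UMI of Hhip (a hedgehog-binding protein) and none of Higd1b or Cox4i2 (pericyte genes), Cdh5 (endothelium), Ptprc (CD45, immune cells) or Epcam (epithelium). The rule kept 148 of 88616 barcodes that passed the quality limits, or 0.167% of them, out of 94392 barcodes in all. The members were thus chosen by the measured UMIs of these 9 genes, whose levels are given as descriptions with no test.

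All 6 libraries came from 21-month-old male C57BL/6 mice, with 1 library per mouse and 3 mice per group. The p16-DTR mice carried p16-CreERT2, a tamoxifen-activated recombinase driven from the p16 (Cdkn2a) locus, together with R26-LSL-DTR, a diphtheria toxin receptor silent until the recombinase removes its stop. The control mice carried p16-CreERT2 and no receptor allele. Both groups were given tamoxifen for 5 days, left for 2 weeks, given diphtheria toxin for 5 days and left to recover for 2 weeks, so neither group was spared the drug or the toxin. Lungs were digested with liberase, and 20000 CD45- and 9000 CD45+ sorted cells were mixed for each library, which fixes the input ratio of immune to other cells. In this mouse design p16-expressing cells, a class rich in senescent cells, are the ones made sensitive to the toxin, and the comparison asks what differs in the lung after it.

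The 6 libraries held 254200305 to 344421685 UMIs each. The recombinase's own locus was checked first. Levels are given as CPM, the UMIs of a gene per 1000000 UMIs of the stated cells in 1 library. Cdkn2a stood at 7.10, 8.57 and 7.31 CPM over all passing barcodes of the mice labelled p16-DTR and at 1.15, 2.60 and 2.84 CPM in the control libraries. The mice labelled p16-DTR were thus higher in all 3 mice (exact two-sided permutation p = 0.1, the smallest possible), the opposite of a loss of p16-expressing cells. A tdTomato sequence present in the feature list gave 89, 74 and 94 UMIs in the mice labelled p16-DTR and 0 in each control library. All directions below are stated for the libraries as labelled, with this in view.

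Smooth muscle surrounds the airways and the larger blood vessels of the lung and sets their calibre. Calcium entering through voltage-gated channels or released from internal stores activates myosin light chain kinase, which lets myosin pull on actin, and nitric oxide acting through cyclic GMP relaxes the cell again. The contractile genes are switched on together by the factor SRF with its partner myocardin, and SRF binds a short element known as the CArG box. Notch signalling, in particular through Notch3, is known for the upkeep of vascular smooth muscle, whereas muscarinic receptors and Lgr6 are known from airway smooth muscle. Mural cells of capillaries, the pericytes, share some of this machinery but contract little.

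The CArG box was looked up in the promoters of the 24 listed contractile genes to show the element itself. In the RefSeq promoter table (GRCm38.p6, 250 bases before each start, both strands read) 20 of the 24 had an entry. Only exact matches to CCWWWWWWGG, where W is A or T, were counted, so a box with a changed base or outside the window was not. The box was present in 5 of these 20 promoters, or 25% of them, and in 439 of 27025 promoters of all genes, or 1.62%. The 60 bases around each of the 5 boxes are given here in the direction of the gene, with the box in capitals. They lie at chr2:156775278-156775337 (plus strand) for Myl9, chr10:128493025-128493084 (minus) for Myl6, chr14:20929148-20929207 (plus) for Vcl, chr14:34588682-34588741 (minus) for Ldb3 and chr16:57549155-57549214 (plus) for Filip1l.
Myl9: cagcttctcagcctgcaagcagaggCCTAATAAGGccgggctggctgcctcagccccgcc
Myl6: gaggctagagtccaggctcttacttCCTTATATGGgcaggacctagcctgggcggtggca
Vcl: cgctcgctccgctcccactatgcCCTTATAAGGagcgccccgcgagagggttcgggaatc
Ldb3: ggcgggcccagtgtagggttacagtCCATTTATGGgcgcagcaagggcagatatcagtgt
Filip1l: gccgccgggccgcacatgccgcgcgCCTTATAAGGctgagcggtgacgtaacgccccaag
The box of Ldb3 spans 35 to 26 bases before the start and that of Myl9 spans 161 to 152, the boxes of Myl6, Filip1l and Vcl lying at 50 to 41, 62 to 53 and 227 to 218. Vcl and Filip1l carry the same 10 letters. A match describes these windows only, and factor binding was not measured here.

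Across the 6 libraries the members numbered 18, 26 and 12 in the mice labelled p16-DTR against 29, 28 and 35 in controls. They were deep cells, with a median of 21344 UMIs each and a range from 1196 to 85825. Median depth per library was 19586, 19521.5 and 21511 UMIs in mice labelled p16-DTR against 23052, 20951 and 23378 in controls. The group means of these medians, 20206 ± 1130 and 22460 ± 1317 (SD, n = 3 each), gave p = 0.2 in an exact two-sided permutation test, in which 3 against 3 mice cannot go below 0.1. No member barcode was shared between libraries. At the edges of the rule, 12 members sat at the Cnn1 limit of 2 UMIs and 6 at the Des limit of 1. The positive limits alone were passed by 343 barcodes, of which 68 failed only on Cox4i2, 28 only on Hhip, 23 only on Cdh5 and 15 only on Ptprc. Hhip is also known from muscle-like cells around airways, and the 28 barcodes that failed on it alone were not members.

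**Figure D1:**
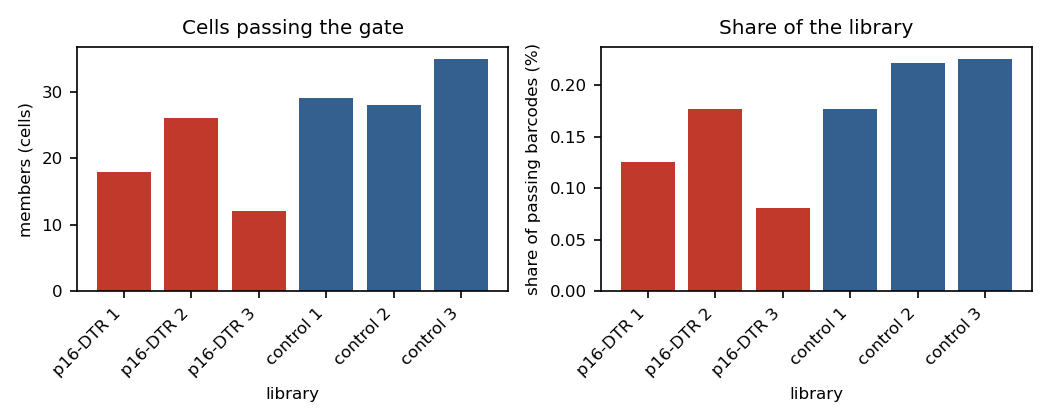
Smooth muscle cells per library (left) and their share of all barcodes passing the quality limits, in percent (right), one bar per mouse in the order of the replicate numbers. The shares run from 0.0802% to 0.177% in the mice labelled p16-DTR and from 0.177% to 0.226% in the control libraries.

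Genes of smooth muscle that the rule did not use bore out the name. Acta2, the smooth muscle actin, stood at 12661 ± 902 CPM (SD, n = 6 libraries) and had a UMI in 148 of 148 members. Tagln (transgelin), Myl9 (a myosin regulatory light chain), Tpm2 (a tropomyosin) and Mylk (myosin light chain kinase) were likewise seen in every member. Myocd, the gene of myocardin, averaged 1004 ± 137 CPM and was seen in 140 members, Synpo2 in 146, Lmod1 in 143 and Smtn in 124.

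Markers of endothelial, epithelial and immune cells were low, whereas some markers of other mesenchymal cells were detected. Of 9 pericyte markers 7 were detected, and their summed level ran from 948 to 1401 CPM in the mice labelled p16-DTR and from 1059 to 1364 CPM in the control libraries. Higd1b and Cox4i2 were at 0 by the rule. Of 12 fibroblast markers 11 were detected, with Pi16 at 0 and sums from 1272 to 1919 CPM and from 1506 to 2181 CPM. Of 6 markers of Hhip myofibroblasts all 6 were detected, with sums from 1936 to 2503 CPM and from 1783 to 2325 CPM. Their median over the 6 libraries was 2094 CPM, against 4034 CPM in Hhip fibroblasts, which are the cells with at least 3 Hhip UMIs described below. Hhip itself, used by both gates, averaged 0.79 CPM in the members against 2079 CPM there, so the gates themselves set a gap between these sums. Mustn1, a small nuclear protein of muscle and skeleton, made up most of the sum in the members, at 1545 ± 280 CPM in 144 members against 465 CPM in those fibroblasts. Aspn (asporin), a matrix proteoglycan, stood at 319 ± 128 CPM in 95 members against 1031 CPM. Of 8 endothelial markers 7 were detected, with Cdh5 at 0 by the rule, and their sums lay between 26.5 and 63.3 CPM in all libraries. The epithelial list summed to 71.6 to 139.3 CPM, led by Sftpc, the surfactant protein of alveolar type 2 cells, of which 108 members (73.0%) held a UMI. Sftpc averaged 65.9 CPM in the members and 78.4 CPM in Hhip fibroblasts. The immune list, with Ptprc at 0 by the rule, summed to 43.0 to 70.5 CPM.

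Part of the cardiac list was detected as well, 6 of 9 markers with sums from 2033 to 3543 CPM in the mice labelled p16-DTR and from 2301 to 3534 CPM in the control libraries. Actc1, the alpha cardiac actin, averaged 2386 ± 552 CPM and had a UMI in 142 of 148 members. Tnnt2, cardiac troponin T, averaged 157 ± 88.1 CPM in 67 members, and Ryr2, the cardiac ryanodine receptor, 266 ± 103 CPM in 84 members. Pln was seen in 14 members, Myl4, an atrial light chain, in 10, at 3.67 CPM beside 4.07 CPM in Hhip fibroblasts, and Nppa in 1. Myh6, Tnni3 and Myl7, which define heart muscle, were at 0 in all members.

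The division into airway and vascular muscle was uneven. Of the 7 airway markers Actc1 was nearly universal, Lgr6, a stem-cell-type receptor of the R-spondins, was seen in 48 members, Chrm2, the M2 muscarinic receptor, in 41 and Chrm3 in 7, whereas Tacr2 (a tachykinin receptor) and Dach2 were seen in none, and Hhip, limited by the rule, in 2. Of the 8 vascular markers Mustn1, also on the myofibroblast list, was seen in 144 members, Heyl, a Notch target, in 111, Ntf3 (neurotrophin 3) in 96, Kcna5 (a potassium channel) in 36, Rgs5 in 26, Gja4 (connexin 37) in 25, Pln (phospholamban) in 14 and Olfr558, an odorant receptor, in 1. Notch3, which stood on the pericyte list, was seen in 125 members. Genes of both lists were thus detected in these cells, and they are called smooth muscle with no further division.

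The members were set against their nearest neighbours within the same 6 libraries. Hhip fibroblasts were 1662 cells with at least 3 Hhip UMIs and the same limits of 0 on pericyte, endothelial, immune and epithelial genes. Pericytes, gated as planned with at least 2 Higd1b UMIs, at least 1 of Cox4i2, at most 2 of Myh11 and none of Cdh5, Ptprc or Epcam, came to 62 shallow cells only, so a gate without the Myh11 limit, chosen after the data were seen, was added and held 498 cells. Each library was its own block in edgeR's quasi-likelihood test, with Benjamini-Hochberg adjustment at 0.05 over all genes. Against Hhip fibroblasts 4542 of 12873 genes were called (35.3%), 1861 higher and 2681 lower in smooth muscle. Against the 62 pericytes 1770 of 7017 were called (25.2%), 1025 higher and 745 lower, and with library-size scaling alone 816 higher and 934 lower, a scaling that moved the median log2 fold change of all genes from 0.08 to -0.13. Against the 498 pericytes 4559 of 10174 were called (44.8%), 2316 higher and 2243 lower.

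Contractile genes were higher in smooth muscle than in both neighbours. Of the 21 listed contractile genes outside the rules, 21 of 21 were called higher than in Hhip fibroblasts, with a median log2 fold change of 3.01 against -0.06 over all genes, where 14.5% of genes were called higher and 20.8% lower. Against the 498 pericytes 21 of 21 were called higher with a median of 2.95, beside a background of 22.8% called higher and 22% called lower, and against the 62 pericytes 20 of 21, with a median of 3.54 beside 14.6% called higher and 10.6% lower. Acta2 averaged 12661 CPM in smooth muscle, 360 ± 76.1 CPM in Hhip fibroblasts and 650 ± 343 CPM in the 498 pericytes. Its log2 fold change was 5.21 (SE 0.14, adjusted p 1.32e-11 by edgeR) against the fibroblasts and 4.50 (SE 0.24, adjusted p 6.42e-09) against the pericytes. Ldb3, which anchors actinin at the dense body or Z-disc and whose promoter box is shown above, stood at 300 ± 45.3 CPM against 3.46 ± 0.81 CPM in Hhip fibroblasts, a log2 fold change of 6.47 (SE 0.16). Mylk differed less, at 2144 ± 169 CPM against 916 ± 98.3 CPM in the fibroblasts, a log2 fold change of 1.28 (SE 0.09).

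**Figure D2:**
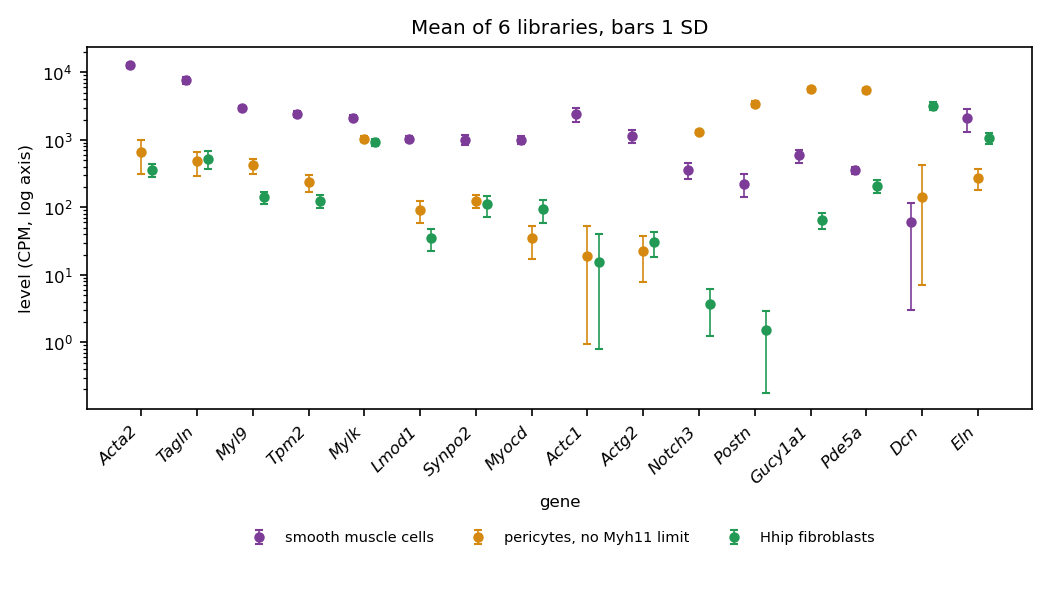
Mean level in CPM (log axis) of 16 genes in smooth muscle cells, in pericytes gated with no Myh11 limit and in Hhip fibroblasts, with bars of 1 SD over 6 libraries; a lower bar that would pass 0 is drawn short. Acta2 to Actg2 are higher in smooth muscle than in both other cells, whereas Notch3, Postn, Gucy1a1 and Pde5a are higher in pericytes and Dcn in Hhip fibroblasts.

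Actc1, Ryr2, Tnnt2 and Pln of the 9 cardiac markers were called higher in the members than in Hhip fibroblasts and in the 498 pericytes. Of 10 tested genes of myocardin and SRF regulation 5 were called higher and 2 lower than in Hhip fibroblasts, beside 14.5% and 20.8% of all genes. Of 9 tested, 4 were higher and 3 lower against the 498 pericytes (22.8% and 22% of all genes), and 3 higher and 1 lower against the 62 (14.6% and 10.6%). Actc1 averaged 2386 CPM in smooth muscle, 15.8 ± 24.3 CPM in Hhip fibroblasts and 19.0 ± 34.4 CPM in the 498 pericytes, and was higher in smooth muscle in 6 of 6 libraries in both comparisons. Ryr2 stood at 266 CPM against 2.65 ± 3.02 CPM in Hhip fibroblasts and 68.1 ± 15.7 CPM in the 498 pericytes. Myocd was 1004 CPM against 94.3 ± 34.9 CPM in the fibroblasts and 35.5 ± 18.1 CPM in the pericytes. Ctnna3, an alpha-catenin of muscle junctions, stood at 1688 ± 243 CPM against 3.17 ± 2.57 CPM in the fibroblasts. Gata6, a transcription factor of mesodermal muscle, was 140 ± 49.4 CPM against 3.91 ± 3.56 CPM in the pericytes, a log2 fold change of 5.06 (SE 0.27).

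For the nitric oxide receptor smooth muscle lay between its neighbours. Of 14 tested genes of cyclic GMP, myosin phosphatase and RGS signalling, 13 were called higher than in Hhip fibroblasts, with a median log2 fold change of 2.34. Against the 498 pericytes 6 were called higher and 7 lower. Gucy1a1 and Gucy1b1, the subunits of the nitric oxide receptor, stood at 587 ± 128 and 424 ± 42.7 CPM in smooth muscle. In the 498 pericytes they reached 5627 ± 531 and 2966 ± 124 CPM, and in Hhip fibroblasts 65.2 ± 16.9 and 32.9 ± 8.62 CPM. Pde5a, which breaks down cyclic GMP, was 359 ± 42.2 CPM in smooth muscle and 5460 ± 502 CPM in the pericytes, a log2 fold change of -3.85 (SE 0.11, adjusted p 1.77e-10). Rgs2, a brake on Gq signalling, ran the other way, at 655 ± 329 CPM against 55.6 ± 28.2 CPM in the pericytes.

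Notch3, the main Notch receptor of mural cells, also lay between the neighbours. Notch3 averaged 360 ± 94.7 CPM in smooth muscle, 3.68 ± 2.44 CPM in Hhip fibroblasts and 1316 ± 99.4 CPM in the 498 pericytes. It was called higher than in the fibroblasts (log2 fold change 6.70, SE 0.26) and lower than in the pericytes (-1.82, SE 0.13, adjusted p 1.16e-07). Of 8 tested Notch genes 4 were higher and 1 lower against the fibroblasts, with a median log2 fold change of 0.85. Of all genes 14.5% were higher and 20.8% lower there. Against the 498 pericytes 1 was higher and 6 lower, with a median of -1.62, beside 22.8% and 22% of all genes. Against the 62 pericytes 0 were higher and 5 lower of 8, with a median of -1.25, beside 14.6% and 10.6% of all genes. Not every Notch gene lay between the neighbours. Notch2 was lowest in smooth muscle, at 74.4 ± 16.6 CPM against 107 ± 10.8 CPM in the fibroblasts and 356 ± 20.8 CPM in the 498 pericytes. Nrarp, a Notch target that feeds back on the pathway, stood at 0.87 ± 0.99 CPM in smooth muscle against 230 ± 33.0 CPM in the pericytes.

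Receptors and channels differed from pericytes in both directions. Of 15 tested receptors of contraction and relaxation 9 were called higher and 6 lower than in the 498 pericytes, and of 18 tested channel and calcium genes 11 higher and 2 lower. Of all genes 22.8% were higher and 22% lower there. Against the 62 pericytes the counts were 5 higher and 1 lower of 12 receptors, and 9 higher and 2 lower of 15 channel genes, beside 14.6% higher and 10.6% lower of all genes, so the lower calls among channel genes stood near or below the background in both. Chrm2 averaged 163 ± 104 CPM in smooth muscle and 0.18 ± 0.44 CPM in the pericytes, and Lgr6 83.8 ± 44.0 CPM against 0 UMIs. Ednrb, an endothelin receptor, was 380 ± 202 CPM against 9.30 ± 15.1 CPM, and P2rx1, an ATP-gated channel, 88.4 ± 33.6 CPM against 0.62 ± 1.29 CPM. Kcna5 stood at 21.3 ± 2.19 CPM, with 1 UMI in the pericytes and none in Hhip fibroblasts. In the reverse direction Agtr1a, the angiotensin receptor, was 0.87 ± 0.99 CPM in smooth muscle and 388 ± 69.2 CPM in pericytes, and Trpc6, a cation channel, 40.0 ± 47.8 CPM and 3021 ± 318 CPM.

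Matrix and fibroblast genes divided the members from Hhip fibroblasts. Of 32 tested matrix genes 5 were called higher and 19 lower in smooth muscle, whereas against the 498 pericytes 16 of 33 were higher and 6 lower and against the 62 pericytes 7 of 30 higher and 5 lower. The shares of all genes, higher and lower, were 14.5% and 20.8% against the fibroblasts, 22.8% and 22% against the 498 pericytes and 14.6% and 10.6% against the 62. Eln, elastin, stood at 2080 ± 762 CPM in smooth muscle, 1058 ± 203 CPM in Hhip fibroblasts and 277 ± 94.1 CPM in pericytes. Dcn, decorin, was 59.8 ± 57.8 CPM against 3209 ± 476 CPM in the fibroblasts, and Igfbp6 2.13 ± 1.37 CPM against 755 ± 85.5 CPM. Of 32 tested growth factor signalling genes 10 were called higher and 18 lower than in Hhip fibroblasts, and of 30 tested 13 higher and 10 lower than in the 498 pericytes. Among the lower ones against the fibroblasts were the ligands Igf1, at 1.18 ± 1.43 CPM against 152 ± 21.6 CPM, and Fgf10, at 5.98 ± 12.7 CPM against 210 ± 32.9 CPM. Pericytes expressed Spp1, osteopontin, at 5917 ± 1201 CPM, of which smooth muscle held 3 UMIs in all.

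Stress and mitochondrial genes differed too. For the counts in this paragraph, 14.5% of all genes were called higher and 20.8% lower against the fibroblasts. Against the 498 pericytes these shares were 22.8% and 22%, and against the 62 pericytes 14.6% and 10.6%. Of 19 tested respiratory genes 18 were called higher and 1 lower than in Hhip fibroblasts, with a median log2 fold change of 0.54, and 15 higher and 0 lower than in the 498 pericytes. With the planned gate of 62 pericytes only 4 of 18 respiratory genes were called higher and 0 lower, beside 14.6% of all genes called higher there, and 3 with library-size scaling. Of 18 heat shock and cold-inducible genes 12 were higher and 2 lower against the fibroblasts, and 16 higher and 1 lower against the 498 pericytes, with 11 higher and 0 lower of 17 against the 62. Hspb1, a small heat shock protein that binds actin filaments, averaged 1438 ± 293 CPM against 102 ± 39.8 CPM in the pericytes. Immediate early genes went opposite ways, with 3 higher and 14 lower of 22 against the fibroblasts and 18 higher and 1 lower of 21 against the 498 pericytes, or 11 higher and 1 lower of 20 against the 62. Of 24 tested interferon and MHC genes none was called higher than in the fibroblasts and 14 were called lower. Against the 498 pericytes 3 were higher and 8 lower of 21, and against the 62 pericytes 1 higher and 1 lower of 14.

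The members also varied among themselves. Principal components were computed on the 148 cells after centring within each library, so that differences between mice do not enter, and the ends of each axis are described by the 37 cells farthest out on either side. The same genes made the axes and describe them, so these values carry no test. The first component held 6.24% of the variance and correlated with the log UMI count of a cell at r = 0.27 (148 cells). At one end stood cells rich in contractile genes, with 17082 CPM of Acta2 against 8152 at the other end, 3933 against 1055 CPM of Actc1 and 3073 against 350 CPM of Hspb1. At the other end stood cells with Csmd1 (2572 against 11.6 CPM), Col14a1, a fibril-associated collagen (689 against 0 CPM), Vcam1 (232 against 14.9 CPM) and Irf1 (338 against 31.4 CPM). Some fibroblast markers, Col14a1 among them, moved with this end. Dcn stood at 114 against 6.61 CPM, and Tcf21, a fibroblast transcription factor, had a UMI in 23 of 37 cells against 5. Pdgfra, a growth factor receptor of fibroblasts, stood at 62.0 against 6.61 CPM, with a UMI in 7 cells against 4. Col1a1 differed little, at 246 against 188 CPM, and Lum had a UMI in 1 cell against 0. The first end also held P2rx1 at 251 CPM against 0 and Lgr6 at 251 CPM against 16.1.

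The second component held 4.27% of the variance and correlated with log UMI count at r = -0.18. One end was rich in Cacna1c, the L-type calcium channel (4125 against 1002 CPM), in Tbx4, a lung mesenchyme factor (280 against 4.46 CPM), and in Notch3 (722 against 119 CPM). The same end held Ednra at 531 against 170 CPM, and Gja4 in 17 of 37 cells against 2. The opposite end held Cpe (571 against 25.7 CPM), Pdlim3, which binds actinin (581 against 25.7 CPM), Kcnma1, the large-conductance potassium channel (332 against 0 CPM), and Cnn1 (1740 against 701 CPM).

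**Figure D3:**
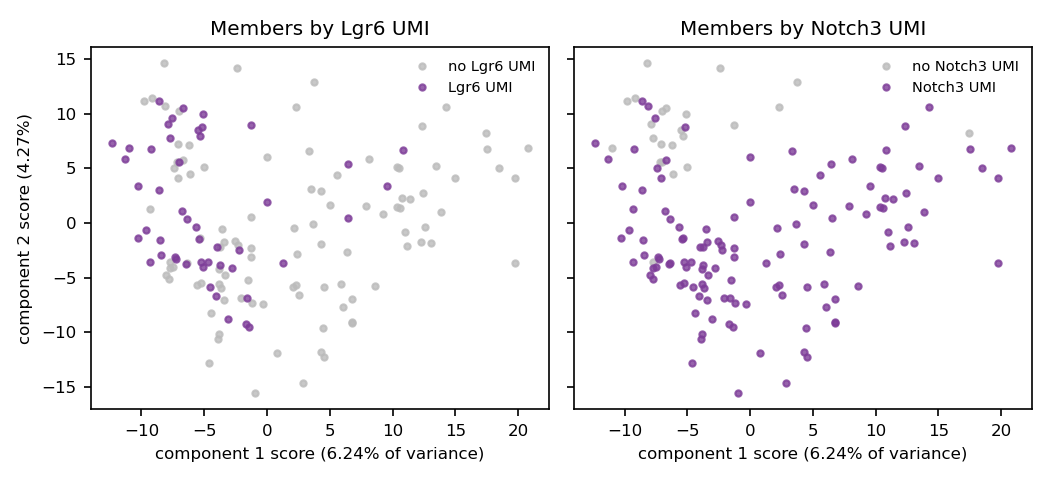
Scores of the 148 smooth muscle cells on the first and second principal components, one point per cell, coloured by whether the cell held a UMI of Lgr6 (left) or of Notch3 (right). The axes hold 6.24% and 4.27% of the variance; most of the 48 cells with Lgr6 lie at low scores on the first component, and most of the 23 cells without Notch3 lie at low scores on the first and high scores on the second.

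Members without Notch3 were looked at after this, in 23 cells chosen once the values had been seen. They were shallower, with a median of 5772 UMIs against 21837 in the 125 cells with Notch3, and detection moves with depth. Their CPM levels were 287 CPM of Lgr6 in them against 71.2 CPM in the cells with Notch3, and 462 against 47.5 CPM of Kcnma1. Acta2 stood at 16942 against 12202 CPM. Ednra was 59.2 against 403 CPM and Chrm2, like Lgr6 an airway marker, 8.89 against 156 CPM. An Lgr6 UMI was held by 9 of the 23 cells and 39 of the 125, and a Chrm2 UMI by 1 and 40. These CPM pool the cells of all mice. Of the 23 cells 8 came from the third control library, which had the highest Lgr6 and the lowest Chrm2 of all libraries.

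Smooth muscle cells themselves gave 0 UMIs of Cdkn2a in both groups. For counting error only, this allows up to 2.03% of the 148 cells with a UMI and up to 0.96 CPM. By group the limits were 5.36% of 56 cells and 2.61 CPM in the mice labelled p16-DTR. In the controls they were 3.26% of 92 cells and 1.53 CPM. Hhip fibroblasts gave 4.83, 6.47 and 3.71 CPM in the mice labelled p16-DTR and 0, 0.20 and 0 CPM in the controls. The 498 pericytes gave 2.25, 6.46 and 0 CPM against 0, 0 and 3.38 CPM, from 8 and 7 UMIs, with overlapping groups. Cdkn1a (p21), a cell cycle inhibitor, was at 272, 113 and 323 CPM in smooth muscle of the mice labelled p16-DTR and at 37.4, 172 and 224 CPM in the controls, with overlapping groups. Its log2 fold change was 0.68 (SE 0.51, edgeR adjusted p 0.958), and -0.10 with members thinned to 3000 UMIs. Hbegf, the mouse homologue of the toxin's receptor, was at 5.23, 8.40 and 6.87 CPM against 48.3, 14.9 and 19.0 CPM, from 8 and 54 UMIs (exact permutation p = 0.1). In the 498 pericytes it ranged from 394 to 542 CPM and from 385 to 471 CPM.

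The share of smooth muscle cells had a lower mean in the mice labelled p16-DTR, and the groups met at their edges. Their share of passing barcodes was 0.126% (95% Wilson interval 0.0795 to 0.199), 0.177% (0.121 to 0.259) and 0.0802% (0.0459 to 0.140). In the control libraries it was 0.177% (0.123 to 0.253), 0.221% (0.153 to 0.319) and 0.226% (0.162 to 0.314). The second p16-DTR library and the first control library met at 0.177%. The means were 0.127 ± 0.0482% and 0.208 ± 0.0271% (SD, n = 3 each), a difference of -0.0803 percentage points (exact two-sided permutation p = 0.2). The 2 sorted fractions were mixed at a fixed ratio, so the share partly reflects the sort. Among barcodes with no Ptprc UMI the means were 0.216% and 0.311% (exact p = 0.2), and among mesenchymal barcodes (members, the 62 pericytes and Hhip fibroblasts) 7.24% and 9.11% (exact p = 0.2).

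Within smooth muscle, few genes differed between the groups beyond the spread of the mice. UMIs were summed over the members of each library, and edgeR called 1 of 7064 genes tested (0.0142%), with 404 (5.72%) at an unadjusted p under 0.05. The count was 0 to 1 with 1 library left out at a time and 114 with no filter on low counts. The groups did not overlap for 741 genes (10.5%). Replicates of 1 group differed by 2.75 to 3.603 times what counting noise gives (chi-square per degree of freedom).

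The genes named next were picked for the lowest p among those whose groups did not overlap, and none of them passed the threshold. Irf1, a transcription factor of the interferon response, was at 39.2, 56.7 and 17.2 CPM in the mice labelled p16-DTR and at 131, 157 and 204 CPM in the controls. Its groups did not overlap, and the log2 fold change was -2.04 (SE 0.32, edgeR adjusted p 0.117). It was -0.81 (adjusted p 0.802) with a wider gate, chosen after the data were seen, that allowed 1 UMI of each excluded gene in place of 0. An Irf1 UMI was found in 18 of 56 members of the mice labelled p16-DTR and in 52 of 92 control members. Thinned to 3000 UMIs per cell, which leaves 142 members, the shares were 10.4% and 22.4% (means of 3 libraries, exact permutation p = 0.1), beside 37.2% of Hhip fibroblasts thinned alike. In Hhip fibroblasts Irf1 was at 133 ± 7.34 and 265 ± 9.18 CPM and was called lower (log2 fold change -0.98, adjusted p 0.00611), 1 of 19 genes called there of 12856 (0.148%). In the 498 pericytes it was at 64.4 ± 17.2 and 62.5 ± 6.13 CPM (adjusted p 0.982). Sox4, a developmental transcription factor, was at 7.84, 2.10 and 10.3 CPM against 91.9, 59.8 and 40.5 CPM, from 7 and 123 UMIs (log2 fold change -3.32, SE 0.54, adjusted p 0.117, and -2.07 with the wider gate). Icam1, a leukocyte adhesion molecule, was at 13.1, 8.40 and 10.3 CPM against 59.2, 54.2 and 26.6 CPM (-2.11, SE 0.46, adjusted p 0.327). Its log2 fold change was -0.71 with the wider gate and -0.74 without the Hhip limit. Bcor, a transcriptional corepressor, was at 31.4, 29.4 and 20.6 CPM against 81.0, 61.7 and 113 CPM (-1.63, SE 0.31, adjusted p 0.312). Irf1 also rose along the first component together with some fibroblast markers. The sums of the whole fibroblast list, given above, overlapped between the 2 groups. Any part of the mix of members in these values was not tested.

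On the higher side Lgi2, a secreted leucine-rich protein, was at 193, 162 and 144 CPM in the mice labelled p16-DTR and at 73.2, 69.1 and 70.9 CPM in the controls. The groups did not overlap, the control mice lay close together, and the log2 fold change was 1.23 (SE 0.20, edgeR adjusted p 0.117). The share of cells with an Lgi2 UMI at 3000 UMIs per cell was 20.2% and 19.3% (exact permutation p = 0.9). Trdn, triadin, a partner of the ryanodine receptor in calcium release, was at 253, 109 and 158 CPM against 67.0, 20.6 and 13.9 CPM (2.36, SE 0.49, adjusted p 0.312). A Trdn UMI was found in 12 of 56 and 18 of 92 members, and a single cell held 68 of the 97 Trdn UMIs of the first p16-DTR library. The Trdn log2 fold change was 1.25 without the Hhip limit, 1.68 without the members above the 95th percentile of UMIs and 3.35 without the first control library. Ednra, the endothelin A receptor that mediates constriction, was at 614, 506 and 415 CPM against 302, 265 and 261 CPM (0.89, SE 0.19, adjusted p 0.312). Of thinned cells 63.3% and 59.0% held an Ednra UMI (exact permutation p = 0.7). After that thinning its log2 fold change was 0.40 (edgeR adjusted p 0.964). Tnfaip6, an inflammation-induced hyaluronan-binding protein, was at 277, 94.5 and 151 CPM against 7.79, 52.3 and 15.2 CPM (2.87, SE 0.55, adjusted p 0.312). A single cell held 95.3%, 46.7% and 90.9% of its UMIs in the 3 mice labelled p16-DTR. The Tnfaip6 log2 fold change was 3.85 (adjusted p 0.0126) under a stricter gate (at least 6 Myh11 and 4 Cnn1 UMIs), 3.86 without the second control library, and 2.09 (adjusted p 0.35) with the wider gate. The groups also did not overlap for Gipc2, Homer1, Grin2a, Zfp503 and Lsmem1, all lower with log2 fold changes from -3.10 to -1.21, and for Fam46a, Ch25h, Cyp2e1, Unc5c, Hip1 and Tmem131l, all higher with 0.84 to 3.65. None of the 11 was called, with adjusted p from 0.312 to 0.361. DESeq2 on the same counts called 7 genes (0.0991%), among them Irf1, Sox4 and Lsmem1 lower and Lgi2, Trdn and Txndc11 higher.

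**Figure D4:**
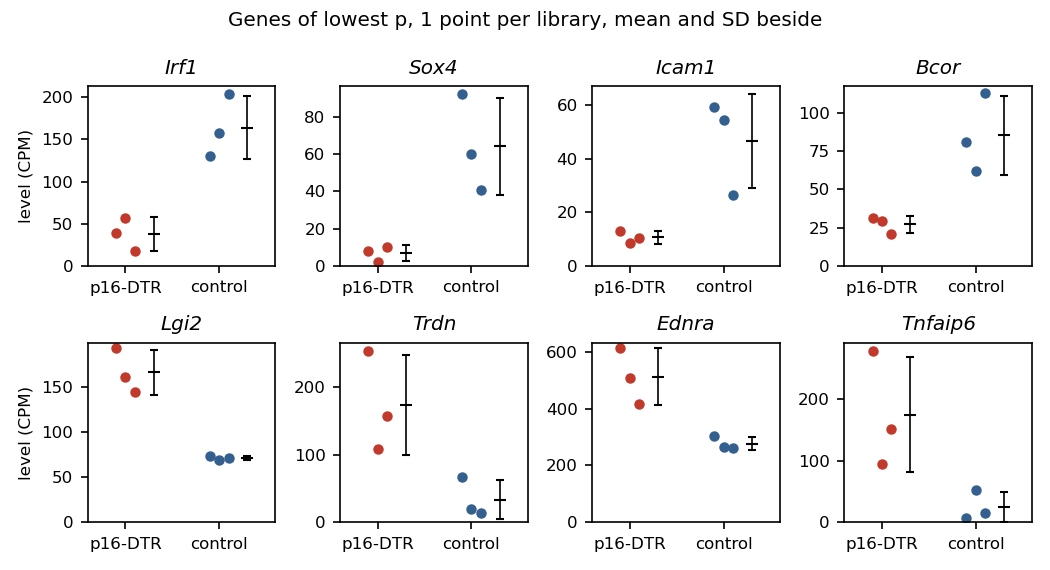
CPM in smooth muscle cells of each of the 6 libraries (points) with the mean and 1 SD per group for Irf1, Sox4, Icam1, Bcor, Lgi2, Trdn, Ednra and Tnfaip6. The groups do not overlap for any of the 8, for which they were partly chosen, and none of them passed the adjusted threshold in edgeR.

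The contractile programme showed no called change. None of the 21 contractile genes outside the rule was called, with a median log2 fold change of -0.05 beside 0.01 over all 7064 genes. Only 1 of the 7064 was called at all (0.0142%), so a count of 0 in this list or those below stands near that share. Acta2 ranged from 11555 to 13458 CPM in the mice labelled p16-DTR and from 12543 to 13873 CPM in the controls. Tagln was at 7010, 6475 and 7364 CPM against 8425, 9006 and 8056 CPM (log2 fold change -0.29, SE 0.15, adjusted p 0.916), and it was 1 of the 21 (4.76%) whose groups did not overlap, beside 10.5% of all genes. Myl9 and Myl6, with boxes shown above, had log2 fold changes of 0.07 and -0.05 (SE 0.15 and 0.14). Vcl, vinculin, was at 742, 928 and 1308 CPM against 1542, 1295 and 1173 CPM (-0.43, SE 0.21, adjusted p 0.903). Myocd had overlapping groups, 760 to 1153 against 979 to 1107 CPM. Klf4, which represses the contractile genes, was at 52.3, 58.8 and 61.8 CPM against 88.8, 78.5 and 111 CPM (-0.70, SE 0.23, adjusted p 0.695).

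Among receptors that contract or relax the cell none was called. Of 25 listed receptors 9 passed the filter on low counts and 6 of the 9 had positive log2 fold changes, with a median of 0.54. Chrm2 was at 327, 101 and 251 CPM against 145, 95.3 and 59.5 CPM, with overlapping groups (1.17, SE 0.41, adjusted p 0.725). Ednrb was at 760, 237 and 360 CPM against 427, 267 and 228 CPM (0.56, SE 0.38, adjusted p 0.947). Of the other airway markers Lgr6 was at 70.5, 35.7 and 51.5 CPM against 125, 71.0 and 149 CPM, groups that only just did not overlap (-1.15, SE 0.33, adjusted p 0.546), and Actc1 had a log2 fold change of -0.19 (SE 0.23).

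Calcium, cyclic GMP and Notch genes had medians near that of all genes. None of 15 channel, 13 cyclic GMP and 7 Notch genes was called, with medians of 0.05, -0.04 and -0.17. Cacna1c ranged from 2115 to 2917 CPM in the mice labelled p16-DTR and from 2501 to 2940 CPM in the controls. Ano1, a calcium-activated chloride channel, was at 123, 141 and 168 CPM against 207, 206 and 246 CPM (-0.62, SE 0.19, adjusted p 0.637). Notch3 was at 363, 529 and 251 CPM against 297, 348 and 372 CPM (0.18, SE 0.24).

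Of 29 matrix genes none was called, with a median of -0.01. Col8a1, a collagen of vessel walls, was at 261, 479 and 151 CPM against 52.9, 183 and 57.0 CPM, with overlapping groups (1.66, SE 0.48, adjusted p 0.556). Postn, periostin, was at 154, 145 and 203 CPM against 229, 239 and 377 CPM (-0.77, SE 0.23, adjusted p 0.637). Of 12 tested secretome genes 3 had positive values, with a median of -0.31, and of 14 p53 and arrest genes 11 were positive, with a median of 0.20. Mitochondrial genes had a median of 0.03, and none of 18 was called.

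Glucocorticoid-induced genes were the list with all its tested members on one side. All 13 had positive log2 fold changes, with a median of 0.52 but none was called. An unadjusted p under 0.05 was reached by 4 of the 13, as by 4 of 17 heat shock and cold-inducible and 5 of 20 immediate early genes, beside 5.72% of all genes. Errfi1, an inhibitor of the EGF receptor, was at 1217, 1271 and 1109 CPM against 519, 1011 and 531 CPM, with the control libraries all lower (0.81, SE 0.25, adjusted p 0.656). Its log2 fold change was 0.71 in Hhip fibroblasts and 0.97 in the 498 pericytes, called in neither. Pdk4, which restrains glucose oxidation, was at 91.4, 42.0 and 154 CPM against 29.6, 35.5 and 27.9 CPM (1.58, SE 0.41, adjusted p 0.476). Zbtb16 was at 907, 603 and 941 CPM against 363, 557 and 638 CPM (0.65, SE 0.24, adjusted p 0.744), with log2 fold changes of 0.82 in Hhip fibroblasts and 1.15 in the 498 pericytes, called in neither. Among the clock genes Arntl (BMAL1) was at 39.2, 50.4 and 85.8 CPM against 131, 99.05 and 111 CPM (adjusted p 0.513), and 0 of 11 were called. The hours at which the mice were taken are not given in the sources used here, and their part was not tested.

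**Figure D5:**
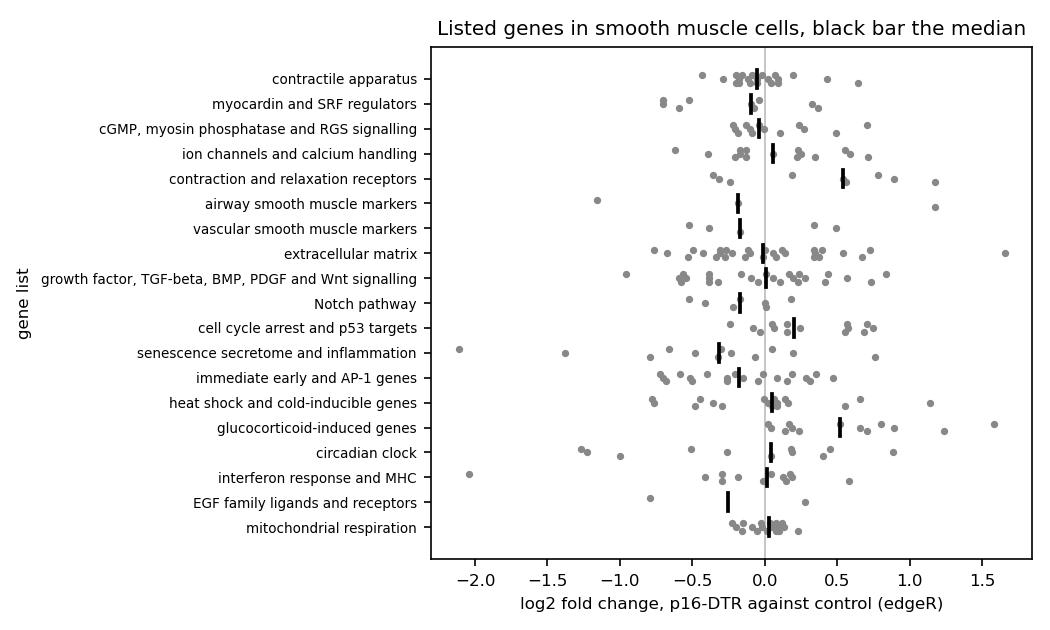
Log2 fold change of each tested gene of 19 lists (genes of the rule left out), mice labelled p16-DTR against control in smooth muscle cells, one point per gene with a black bar at the median. The medians lie between -0.31 and 0.54, and the 13 glucocorticoid-induced genes all lie above 0. No gene in any list was called, beside 1 of all 7064 genes tested.

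Whether the groups differed in smooth muscle otherwise than in its neighbours was tested as an interaction term. Against the 498 pericytes none of 10174 genes was called by edgeR, with 561 at an unadjusted p under 0.05. Against the 62 pericytes 2 of 7017 were called (0.0285%), Adamts9 and Ccl11, in both of which the groups lay further apart in the pericytes than in smooth muscle. The pericytes of the mice labelled p16-DTR were 6, 5 and 4 cells in this comparison. Ccl11, the chemokine eotaxin, was at 450, 0 and 1227 CPM in the pericytes of the mice labelled p16-DTR and at 0 UMIs in the controls, while smooth muscle gave 2 and 26 UMIs. Against Hhip fibroblasts, a comparison added after the data were seen, 8 of 12873 genes were called (0.0621%), 5 higher and 3 lower.

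Trdn, Chrm2 and Actc1 were among these 8, and the value in brackets is the log2 fold change in smooth muscle minus that in the fibroblasts. Trdn had the higher values in smooth muscle of the mice labelled p16-DTR given above, and was at 33.8, 12.6 and 17.4 CPM against 27.2, 21.8 and 30.3 CPM in the fibroblasts (2.79, SE 0.45, edgeR adjusted p 0.047). Chrm2 was at 36.0, 15.4 and 8.80 CPM against 82.5, 91.1 and 51.1 CPM in the fibroblasts, where the groups did not overlap (3.11, SE 0.42, adjusted p 0.0148). Actc1 was at 0.78, 0 and 0 CPM against 11.4, 62.6 and 19.7 CPM in the fibroblasts, while smooth muscle held 2064, 1764 and 2870 against 2514, 3155 and 1949 CPM (6.04, SE 0.73, adjusted p 0.0106). Without the third control library no gene was called in this interaction, with 652 at an unadjusted p under 0.05. Without the third p16-DTR library 3 were called.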

How the data were processed

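The authors counted reads with Cell Ranger 8.0.1 on the mm10 build, per the submitters' processing notes, and deposited UMI counts per gene and barcode for 6 libraries. The rule, the limits and the gene lists were chosen with earlier results of these data known. No doublet caller was run, and the limits of 0 on other cells' genes stand in its place. UMIs of the members were summed per library and tested with edgeR 4.0.16 (filterByExpr, TMM, quasi-likelihood, Benjamini-Hochberg at 0.05; R 4.3.3), checked on simulated data; an SE is the log2 fold change over the root of its F. Single values were compared by exact permutation (scipy 1.17.1). Mice are the replicates, and p-values measure the spread between them. Intervals and limits cover counting error only. Named genes were those of the rule, up to 10 of lowest p per direction without overlap of the groups, the 4 highest and all called of each list, the strongest up to 4 per list and 10 overall between cell types, and markers. Alternatives were DESeq2 1.42.0, other scalings and filters, stricter and wider gates, thinning to 3000 UMIs, a replicate block and each library left out. Some genes that the rule names are not reported here.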

Additional observations from a re-analysis of the deposited data

Results flagged for a closer look

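A test of the difference itself, the interaction of group and cell type in edgeR, marked 2 genes against the 62 pericytes and 8 against Hhip fibroblasts, and the values below are the log2 fold change in smooth muscle (libraries labelled p16-DTR against control) minus that in the other cells. Against the 62 pericytes these were Adamts9, at -4.4, and Ccl11, at -12.05, whose smooth muscle values came from 2 and 26 UMIs. Ccl11 had 0 UMIs in the control pericytes, so its fitted value is set by the prior count and is no measured size, and the pericytes of the libraries labelled p16-DTR were only 6, 5 and 4 cells. Neither was called against the 498 pericytes gated with no limit on Myh11. Against Hhip fibroblasts the lower values included Gpr176 at -5.2 and Kcnip4 at -6.68. Gpr176 rested on 1 and 54 UMIs in smooth muscle and Kcnip4 on 3 and 95. The higher values were Actc1 at 6.04, Sema3e at 3.38, Chrm2 at 3.11, Cyp2e1 at 4.4 and Trdn at 2.79. Sema3e rested on 57 and 13 UMIs in smooth muscle and Cyp2e1 on 32 and 4, whereas Actc1 rested on 2466 and 4841 there and on 5 and 567 in the fibroblasts. The fibroblast gate set no limit on muscle genes, and the part of muscle-like cells in the Actc1 values was not tested. Without the third control library none of the 8 was called.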

How the results depend on the processing

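The count of genes changed in smooth muscle cells between the groups, 1 in edgeR, moved with several choices. It was 114 with no filter on low counts (51 higher, 63 lower), 7 with DESeq2, 3 without the members above the 95th percentile of UMIs (Irf1 and Errfi1 among them), 2 with members thinned to 3000 UMIs (Col8a1 among them), 0 without the Hhip limit (431 at an unadjusted p under 0.05) and 0 with a wider gate chosen after seeing the data (537 unadjusted). The stricter gate called 1 gene, Tnfaip6, higher. Leaving out 1 library gave 0 to 1 genes, with 315 to 518 at an unadjusted p under 0.05 where the count was 0. The 1 gene called without the third control library was Gm12381. A replicate block gave 5 calls (Ano3, Trdn, Sox4 and Col8a1 among them). The labels do not say whether same-numbered libraries were paired. Centred within group, same-numbered libraries correlated at 0.0017, 0.031 and 0.0018, and differently numbered ones at -0.059 to 0.055. With sums of so few cells these values cannot decide whether the numbers pair the mice. Against pericytes 721 genes were called after thinning and 4559 with no limit on Myh11, and against Hhip fibroblasts 2034 after thinning, where fewer genes were tested. The interaction with pericytes gave 0 to 26 genes without 1 library, 0 with no limit on Myh11 and 8 with Hhip fibroblasts in their place, and the interaction with Hhip fibroblasts gave 0 to 8. Cdkn1a reversed to -0.10 after thinning. The cause of these shifts was not tested. The other 43 summary values stayed within 1.5 times the main count or, for the share, kept direction. The share could not pass 0.05 in any setting, as its exact p cannot go below 0.1, or 0.2 with a library left out. A count hides which genes: those called with the stricter gate and without the third control library shared 0 genes with the main call, and library-size scaling turned the split against the 62 pericytes from 1025 higher and 745 lower to 816 and 934. Of single-gene values 2000 kept direction and side of the threshold, while 70 lost and 28 gained a call. The share of smooth muscle cells stayed lower in the libraries labelled p16-DTR under all 13 alternatives run, with exact p from 0.1 to 0.4. Each library held 12 to 35 members, and between the groups genes outside the 7064 with enough counts were not tested.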
